A study of Mus musculus with 6 samples.

Results

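Bone marrow stem and progenitor cells receive signals from their niche through a small set of ligands, receptors and intracellular mediators, and 9 genes of this kind were examined: Cxcl12, Cxcr4, Angpt1, Bmpr1a, Tgfb1, Tgfbr1, Tgfbr2, Smad4 and Smad7. They are 9 of the 18193 genes that the probe table names by a single symbol, and 25 of the 45037 probe sets (groups of probes that read 1 transcript) carry their names alone. The genes were chosen by symbol, with the differences between the sorted populations already known from earlier results of these data, so their own differences are given as a description and without a test. Every probe set of each gene was taken, whatever its level. Cxcl12 had 3 probe sets, Cxcr4 1, Angpt1 2, Bmpr1a 6, Tgfb1 2, Tgfbr1 3, Tgfbr2 3, Smad4 3 and Smad7 2.

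All cells came from adult mice of genotype Mx1Cre;Ergkd/+;R26Y on a mixed 129-B6 background, so both groups carry the interferon-inducible Mx1Cre transgene, 1 Erg knockdown allele in the germ line and the Rosa26-Stop-YFP reporter, which yields yellow fluorescent protein once Cre has removed its stop. LSK cells, which lack lineage markers and carry Sca-1 and c-Kit, were sorted by YFP from 3 mice (278, 279 and 281). YFP+ cells are labelled Erg-restored to wild type, and YFP- cells Erg-knockdown with a reduction of about 40%. The labels name no age beyond adult and no sex. Each of the 6 Affymetrix arrays holds 1 population of 1 mouse. The groups are called restored-labelled and knockdown-labelled, because the probe sets of Erg did not show the labelled reduction: they read 1696 ± 159 against 1573 ± 245 and 2764 ± 124 against 2809.9 ± 140.5 (restored against knockdown, SD, n = 3 arrays each). Erg dose as labelled, the action of Cre and the reporter itself are confounded by the YFP sort and cannot be told apart.

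CXCL12 is a chemokine that stromal cells of the marrow secrete, and its receptor CXCR4 on stem cells holds them in place. ANGPT1 is a ligand of the TIE2 receptor tied to stem cell quiescence. Ligands of the TGF-beta family act through paired type I and type II receptors: TGFBR1 and BMPR1A are type I receptors, and TGFBR2 is the type II receptor for TGF-beta. The receptors phosphorylate SMAD proteins, which enter the nucleus with the shared partner SMAD4, while SMAD7 is induced by the pathway and inhibits it. In the marrow, TGF-beta is known to hold stem cells in quiescence, and BMPR1A is known for its part in niche cells.

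Cxcl12 and Bmpr1a had the widest differences among the 9 genes, and ERG belongs to the ETS factors, which bind DNA around the core GGAA, so the 250 bases before the start sites of these genes are shown. The sequences are RefSeq promoter windows of assembly GRCm38.p6, and capitals mark GGAA or its reverse complement TTCC. Windows of these genes on 1 chromosome were left out, and 6 of the 9 genes had a window among the rest. The Cxcl12 window lies at chr6:117168285-117168534 on the plus strand and the Bmpr1a window at chr14:34502547-34502796 on the minus strand.
Cxcl12: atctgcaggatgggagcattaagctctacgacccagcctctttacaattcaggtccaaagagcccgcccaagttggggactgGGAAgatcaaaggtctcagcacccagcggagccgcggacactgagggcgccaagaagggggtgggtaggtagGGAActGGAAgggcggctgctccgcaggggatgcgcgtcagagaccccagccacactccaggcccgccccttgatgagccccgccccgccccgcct
Bmpr1a: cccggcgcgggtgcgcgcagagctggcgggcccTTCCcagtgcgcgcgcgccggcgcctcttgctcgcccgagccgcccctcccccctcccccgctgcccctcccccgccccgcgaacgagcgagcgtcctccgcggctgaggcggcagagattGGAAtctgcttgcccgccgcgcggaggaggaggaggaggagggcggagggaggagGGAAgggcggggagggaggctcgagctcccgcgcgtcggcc
Each window holds 3 matches to the core on either strand, 3 as GGAA in Cxcl12, and 2 as GGAA with 1 as TTCC in Bmpr1a. The core occurs in 93.4% of 32851 promoter windows of this length, with a median of 3 matches, so both windows hold the median number. The longer ETS consensus CCGGAAGT, found on either strand in 2.88% of windows, is in neither. GC content was 64.4% in the Cxcl12 window and 78.8% in the Bmpr1a window, against a median of 52.4% over all windows. A match is a description of the letters and does not show that ERG binds there.

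The array values are linear intensities. The median probe set of an array read between 135 and 157, and 20 to 35 probe sets had the value 0. Kit, the gene of c-Kit, was bright, with its brighter probe set between 3972 and 5206, and so was Cd34, between 8799.5 and 9512. No probe set carried the symbol of Ly6a, the Sca-1 gene, alone, so that marker of the LSK gate was not read. The restored-labelled array of mouse 279 stood apart in the 3′ over 5′ log2 ratio of the control probes of beta-actin (0.74, against 0.49 to 0.59 on the other arrays), a measure of RNA quality. Where leaving out mouse 279 moved a difference of the 9 genes by over 1.5 times, the value without it is given too, except for 1445413_at of Bmpr1a and 1422019_at of Tgfbr2, whose differences lay within their SE. Differences are knockdown-labelled minus restored-labelled within a mouse, taken after adding 16 and log2 transformation, and carry the standard error (SE) of a limma fit with the mouse as a block. The added 16 understates the differences of dim probe sets.

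Most probe sets of the 9 genes read higher in knockdown-labelled cells. The difference was above 0 for 22 of 25, beside 55.8% of all probe sets, and 15 were higher in all 3 mice, where 18.6% of all probe sets were, while 0 were lower in all 3 mice against 10.3% of all. Every knockdown-labelled array lay above every restored-labelled array for 9 probe sets (8.11% of all), and the reverse held for 0 (4.1% of all). Without mouse 279, 17 were higher in both remaining mice, against 34.4% of all probe sets, and without the restored-labelled array of that mouse 10 did not overlap, against 13.5% of all. These shares describe genes that were picked with the contrast known and support nothing further. The median difference was 0.28, beside 0.029 over all probe sets, and was 0.20, 0.41 and 0.19 in mice 278, 279 and 281. Centring each array on its median moved the median of all probe sets by -0.11, and the median of the 25 was then 0.18 beside -0.078. Under that centring the sign turned for 3 probe sets with small differences, 1439066_at of Angpt1, 1422019_at of Tgfbr2 and 1422487_at of Smad4.

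**Figure D1:**
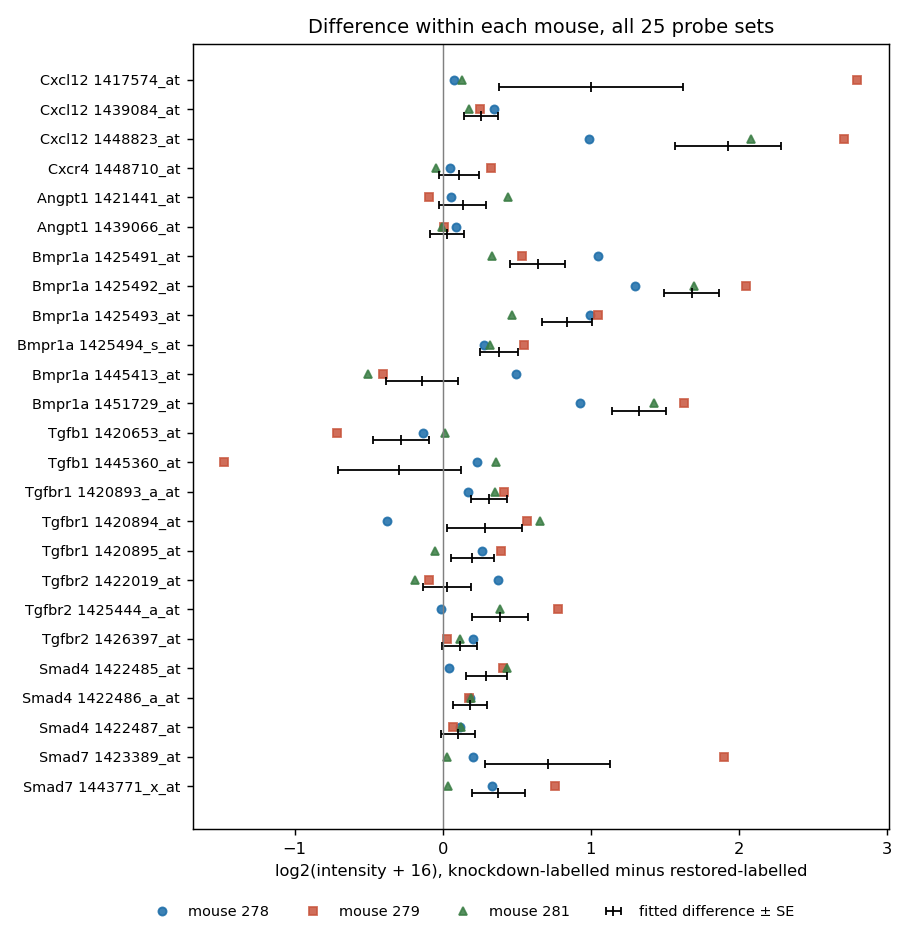
Differences (knockdown-labelled minus restored-labelled, log2(intensity + 16)) of all 25 probe sets, with 1 symbol per mouse and the fitted difference ± SE in black. 1448823_at of Cxcl12 and 5 of the 6 probe sets of Bmpr1a lie above 0 in all 3 mice, while the widest distances of Tgfb1, Smad7 and 1417574_at of Cxcl12 come from mouse 279.

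Cxcl12, the ligand, was read by 3 probe sets that were all higher in knockdown-labelled cells of every mouse but by very different amounts. Probe set 1448823_at read 35.4, 151 and 172 in restored-labelled cells of mice 278, 279 and 281, and 85.7, 1078 and 779 in knockdown-labelled cells. The knockdown-labelled arrays of mice 279 and 281 were far above the rest, but the groups overlapped because that of mouse 278 lay below 2 of the restored-labelled arrays. The difference was 1.93 ± 0.36 (SE, n = 3 mice), a 3.80-fold ratio, and 0.98, 2.71 and 2.08 in the single mice. It was at least 1.5-fold in all 3 mice, which held for 0.366% of all probe sets. In these bulk samples more cells of a type and more RNA per cell cannot be told apart.

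Probe set 1417574_at of Cxcl12 read 50.2, 68.8 and 163 in restored-labelled cells and 53.9, 573 and 179.7 in knockdown-labelled cells. Only the knockdown-labelled array of mouse 279 stood out, and the groups overlapped. Its difference was 1.003 ± 0.62 (SE, n = 3 mice), made up of 0.079, 2.80 and 0.13, and it was 0.11 without mouse 279. Probe set 1439084_at read 209, 253 and 273 against 269.8, 305 and 311. It was higher by similar small amounts in each mouse (0.34, 0.25 and 0.18), with a difference of 0.26 ± 0.12 (SE, n = 3 mice) and overlapping groups. The probe sets thus gave the same sign in all 3 mice but not the same size. The difference of 1439084_at minus that of 1448823_at was -0.64, -2.46 and -1.90 in mice 278, 279 and 281. For 1417574_at minus 1448823_at the gap was -0.91 in mouse 278 and -1.95 in mouse 281, but 0.087 in mouse 279. The probe table ties the 3 probe sets to different source sequences, and which stretch of the transcript each reads was not analysed here.

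**Figure D2:**
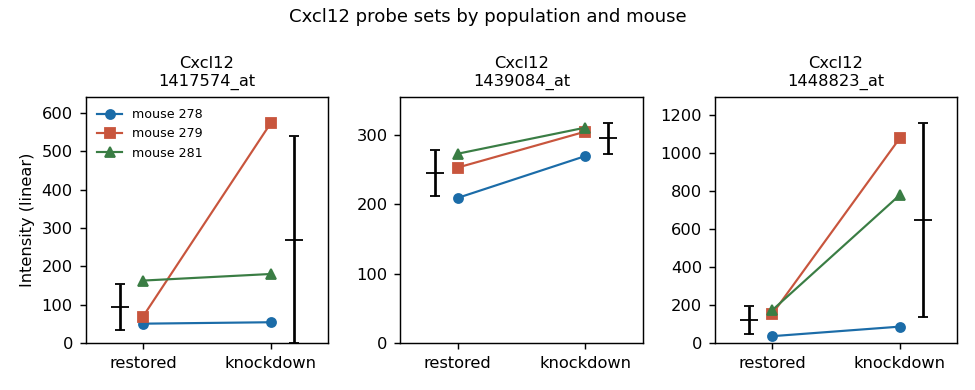
Linear intensity of the 3 Cxcl12 probe sets in the restored-labelled and knockdown-labelled cells, with a line per mouse and the mean ± SD of 3 arrays in black (a bar that would pass below 0 ends at 0). 1448823_at reaches 1078 and 779 in knockdown-labelled cells of mice 279 and 281 but 85.7 in mouse 278, and 1417574_at reaches 573 in mouse 279 alone.

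Markers of the marrow stroma moved beside Cxcl12 on some arrays. Lepr, the leptin receptor gene that marks CXCL12-abundant reticular cells, read 19.6, 44.6 and 70.2 in restored-labelled cells and 22.8, 327 and 159 in knockdown-labelled cells at its brightest probe set, 1456156_at. Adipoq, the adiponectin gene that these cells also express, read 55.2, 52.5 and 65.0 against 39.5, 163 and 121. At these probe sets both were highest on the 2 arrays on which 1448823_at was highest, and neither was clearly higher in mouse 278. The other Lepr probe sets, all dimmer, varied. In mice 278, 279 and 281 they differed by 0.52, 0.40 and 0.71 (1425873_a_at), -0.098, 0.71 and 0.47 (1425644_at), and -0.17, 0.34 and -0.19 (1425875_a_at). Pearson's r with 1448823_at over the 6 arrays was 0.97 for Lepr at 1456156_at and 0.91 for Adipoq. It was 0.80, 0.92 and 0.70 for Lepr at 1425873_a_at, 1425644_at and 1425875_a_at. The 6 arrays are pairs from 3 mice that share their mouse, so these values are descriptive, and both genes were picked for them after their levels were seen.

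Over the whole stromal list, read at the brightest probe set of each gene, 10 of 11 measured markers were higher in knockdown-labelled cells. The median difference was 0.27. Of all probe sets 55.8% were higher, a share against which the counts of the other marker lists stand too. Dimmer probe sets of the stromal genes went in both directions. The summed intensity of the 11 lay between 2225 and 2894 in the restored-labelled and between 2848 and 3012 in knockdown-labelled cells. Most of it came from Pdgfrb. Pdgfrb was the only marker lower on average (-0.019) and the only one with a mean above the median probe set. At 1436970_a_at it read 2247, 2150 and 1645 in restored-labelled cells and 2239, 1701 and 2007 in knockdown-labelled cells. Its differences in mice 278, 279 and 281 were -0.0052, -0.33 and 0.28, and the dimmer 1417148_at gave -0.080. Among knockdown-labelled arrays Pdgfrb was highest in mouse 278, where Lepr and Adipoq were lowest. The mean of 10 of the 11 lay below the median probe set intensity of 149, and none stood at 0 on any array. The brightest probe sets of the collagen genes Col1a1 and Col3a1 were also highest on those 2 arrays and lower in mouse 278, by smaller amounts: Col1a1 read 86.1, 81.0 and 70.5 in restored-labelled cells and 72.6, 90.5 and 110.0 in knockdown-labelled cells. The dimmer probe set of each of these genes went the other way. Col1a1 at 1455494_at read 30.1, 57.3 and 72.4 against 60.4, 29.0 and 11.9. Col3a1 at 1427884_at differed by 0.15, -0.076 and -0.60 in mice 278, 279 and 281. Col1a2 was higher in all 3 mice at its brightest probe set, by 0.33. Endothelial markers had 5 of 9 higher, with sums between 3093 and 4301 in the restored-labelled and between 3498 and 3855 in knockdown-labelled cells. Neutrophil markers were higher on average for 6 of 6, but their sums overlapped widely (15984 to 40844 against 23274 to 44617). The largest difference of each was in mouse 279, and the other mice were mixed. In mice 278, 279 and 281 S100a8 gave 0.0094, 1.06 and -0.64, Ltf -0.13, 3.52 and -0.42, and Mmp8 -0.73, 2.20 and 0.39. Macrophage markers were lower for 6 of 6, with sums of 2379 to 2897 against 1463 to 1854. B-lineage markers had 3 of 5 higher, and their sums of 3795 to 6097 and 6538 to 13687 did not overlap. Most of these B-lineage sums in knockdown-labelled cells came from 1 probe set of Ighm (3215, 1168 and 1438 against 10569, 11129 and 4046), a gene whose other probe sets went in both directions, while Cd79b was lower in all 3 mice. Whether stromal or other cells within the gate contributed to the Cxcl12 difference was not tested.

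The genes whose pattern over the 6 arrays was most like that of 1448823_at, among 19331 probe sets with 1 gene symbol and a mean at or above the median, were Gpc4 (r = 0.979), Pnisr (0.976) and Lyrm4 (0.974). Gpc4, a cell surface heparan sulfate proteoglycan gene, read 56.3, 94.3 and 115 in restored-labelled cells and 103, 406 and 270.1 in knockdown-labelled cells. Pnisr, an RNA-binding protein gene, spanned 216 to 376 and Lyrm4, a gene of mitochondrial iron-sulfur cluster assembly, 5696 to 6421. With 6 arrays and this many candidates, values of this size are a ranking only.

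**Figure D3:**
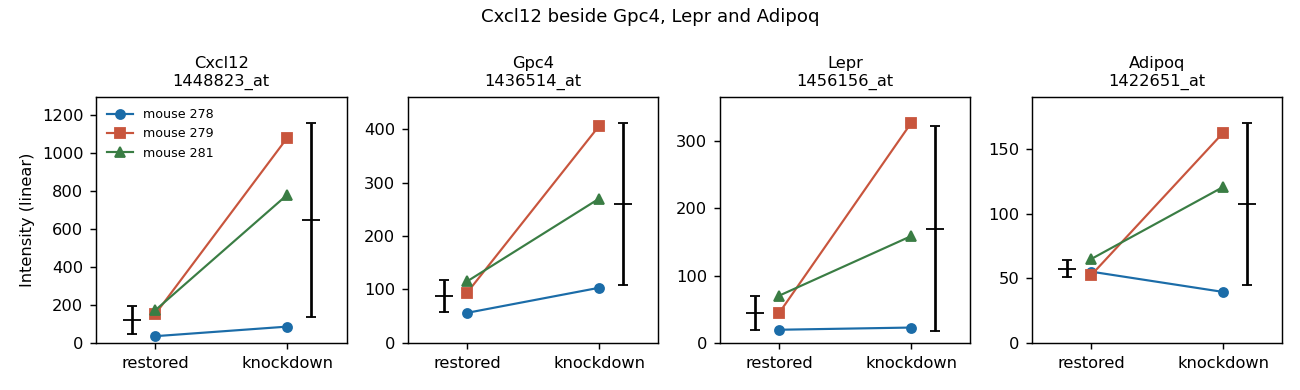
Linear intensity of Cxcl12 (1448823_at), Gpc4, Lepr (1456156_at) and Adipoq by population, with a line per mouse and the mean ± SD of 3 arrays. In each panel the knockdown-labelled arrays of mice 279 and 281 are the highest, and in the Cxcl12, Lepr and Adipoq panels both arrays of mouse 278 lie below them by a wide margin.

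Cxcr4, the receptor of CXCL12 on stem cells, was bright on every array and differed little. It read 6358, 5286 and 6278 in restored-labelled cells and 6572, 6621 and 6089 in knockdown-labelled cells. The lowest array was the restored-labelled one of mouse 279, and the other 5 lay close together. The difference was 0.11 ± 0.14 (SE, n = 3 mice), with 0.048, 0.32 and -0.044 in the single mice, and 0.0019 without mouse 279. At 1448823_at Cxcl12 differed by 2.71 in mouse 279, where the Cxcr4 difference was largest. It differed by 2.08 in mouse 281, where Cxcr4 read slightly lower. A relation between the ligand and the receptor was not tested.

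Angpt1, the TIE2 ligand gene, was bright at both probe sets. 1439066_at read 6101, 6371 and 6514 against 6506, 6397 and 6479.6 (restored against knockdown), a difference of 0.030 ± 0.11 (SE, n = 3 mice), which was negative after centring. 1421441_at read 2088, 1844 and 1777 against 2169, 1729.8 and 2414. Only the knockdown-labelled array of mouse 281 stood out there, and the difference of 0.13 ± 0.16 (SE, n = 3 mice) was -0.019 without that mouse and 0.25 without mouse 279. For both the groups overlapped.

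Bmpr1a, the type I BMP receptor gene, was dim: the mean of each of its 6 probe sets lay below the median probe set. On the knockdown-labelled array of mouse 279, 1425492_at read 153, above the median of 143 of that array. Detection calls were not used here, so whether these probe sets read above background, above all in restored-labelled cells, was not established. Of the 6, 5 were higher in knockdown-labelled cells of every mouse. Probe set 1425492_at read 39.9, 24.99 and 35.2 in restored-labelled cells and 122, 153 and 150.1 in knockdown-labelled cells. The groups were far apart, with the lowest knockdown-labelled array about 3 times the highest restored-labelled one. The difference was 1.68 ± 0.18 (SE, n = 3 mice), and 1.30, 2.04 and 1.70 in the single mice. Probe set 1451729_at read 10.97, 13.9 and 6.36 against 35.2, 76.7 and 44.1. Its groups did not overlap either, and its difference was 1.33 ± 0.18 (0.93, 1.63 and 1.43 in the mice). Because these levels are of the order of the added 16, the sizes depend on it: with 1 added in its place 1451729_at differed by 2.20, and with 64 added by 0.63, while 1425492_at ran from 1.08 with 64 added to 2.10 with a floor at 16.

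The other Bmpr1a probe sets were smaller in difference. 1425493_at read 32.2, 22.6 and 20.0 against 80.1, 63.8 and 33.7, without overlap, and differed by 0.84 ± 0.17 (SE, n = 3 mice). 1425491_at read 29.6, 33.4 and 20.6 against 78.3, 55.6 and 30.2, with overlap through mouse 281, and differed by 0.64 ± 0.18. 1425494_s_at read 22.7, 15.03 and 23.6 against 30.8, 29.4 and 33.3, without overlap, and differed by 0.38 ± 0.13. The suffix s marks a probe set whose probes match more than 1 transcript. The sixth, 1445413_at, read 11.2, 16.3 and 14.6 against 22.3, 8.39 and 5.57 and went the other way in mice 279 and 281, with a difference of -0.14 ± 0.24.

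The 5 probe sets that were higher are tied to 1 source sequence in the probe table and the sixth to another, so the 5 are not independent readings. Among them the difference still varied: 1425492_at exceeded 1425494_s_at by 1.02, 1.496 and 1.38 in mice 278, 279 and 281, and 1451729_at by 0.37, 0.41 and 0.27. The gap of 1425491_at minus 1425492_at was -0.25, -1.51 and -1.36. In mouse 278 the probe sets 1425491_at, 1425493_at and 1451729_at lay together (1.05, 0.997 and 0.93), and in mouse 281 they were spread (0.34, 0.46 and 1.43). Groups with all knockdown-labelled arrays on top were found for 4 of the 6 probe sets, beside 6.59% of probe sets with a mean below the median, and 2 of the 6 were at least 1.5-fold higher in all 3 mice, beside 0.413% of these. These counts used the contrast on which the genes were picked. Unlike that of 1417574_at of Cxcl12, the Bmpr1a differences did not rest on mouse 279: without that mouse 1425492_at differed by 1.498.

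**Figure D4:**
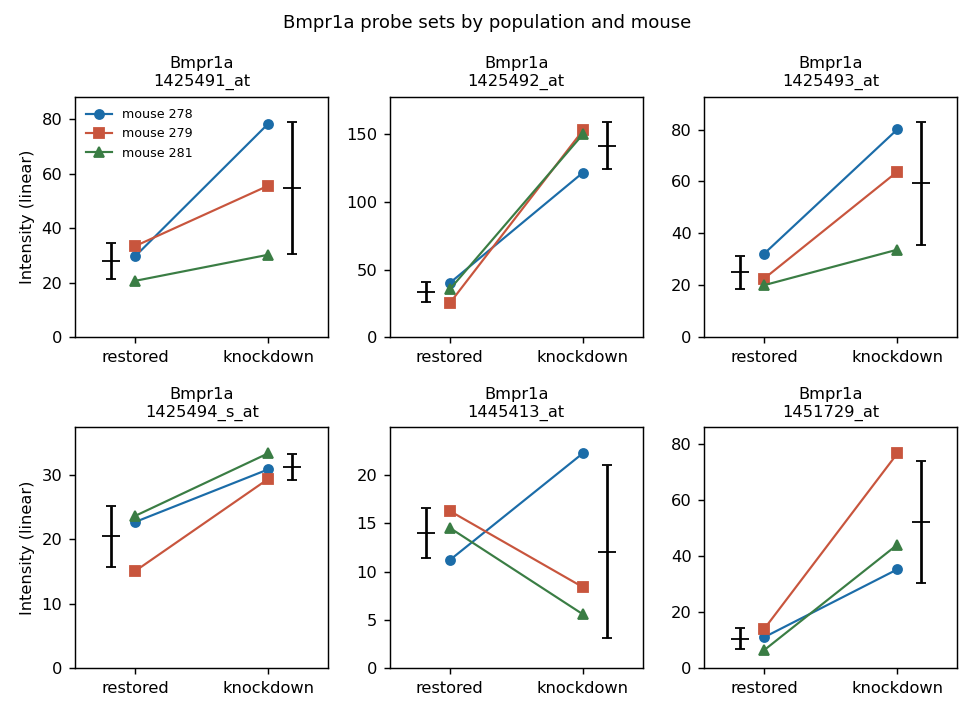
Linear intensity of the 6 Bmpr1a probe sets by population, with a line per mouse and the mean ± SD of 3 arrays. All lines rise from restored to knockdown in 5 panels, with 1425492_at going from between 24.99 and 39.9 to between 122 and 153, while the lines of 1445413_at, with a highest value of 22.3, cross.

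The genes most like 1425492_at over the 6 arrays were Uba6, a ubiquitin-activating enzyme gene (r = 0.997), Ice1, a gene of small nuclear RNA transcription (0.997), and Usp47, a deubiquitinase gene (0.994). Uba6 read 472, 434 and 448 in restored-labelled cells and 580.4, 613 and 599 in knockdown-labelled cells. Usp47 spanned 3766 to 4125 and Ice1 2698 to 3121. With 1425492_at, Lepr at 1456156_at had r = 0.58 and Adipoq 0.59. The other Lepr probe sets had 0.74 (1425873_a_at), 0.56 (1425644_at) and 0.048 (1425875_a_at). Lepr and Adipoq were picked beside Cxcl12 after their levels were seen, so lower values here cannot contrast Bmpr1a with Cxcl12.

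Tgfb1, the TGF-beta ligand gene, was the 1 gene of the 9 whose probe sets were all lower on average. 1420653_at read 3223, 4337 and 3078 in restored-labelled cells and 2932, 2635 and 3105 in knockdown-labelled cells. The restored-labelled array of mouse 279 stood above all others, and the groups overlapped. The difference was -0.28 ± 0.19 (SE, n = 3 mice), with -0.14, -0.72 and 0.013 in the single mice, and -0.062 without mouse 279. 1445360_at, a dim probe set, read 125, 226 and 137 against 149, 71.0 and 181. Its difference of -0.29 ± 0.42 was 0.30 without mouse 279, so its direction came from that mouse. Megakaryocyte markers, from a cell type known to be rich in TGF-beta, were lower for 4 of 5, where 55.8% of all probe sets were higher. Their sums lay between 8764 and 11507 in the restored-labelled and between 8114 and 9287 in knockdown-labelled cells. The highest of these sums was on the restored-labelled array of mouse 279, and its part in the Tgfb1 values was not tested.

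Both TGF-beta receptor genes were read by 1 bright and 2 dim probe sets, and the bright ones differed little. For Tgfbr1, 1420895_at read 2214, 1843 and 2373 against 2659, 2424 and 2286 (restored against knockdown). It was higher in mice 278 and 279 but not in mouse 281, with overlapping groups and a difference of 0.20 ± 0.14 (SE, n = 3 mice), or 0.10 without mouse 279. The dim 1420893_a_at read 54.3, 54.4 and 43.8 against 63.3, 77.9 and 60.2, without overlap (0.31 ± 0.12). The other dim probe set, 1420894_at, ranged from 37.5 to 119 over the 6 arrays and was lower in mouse 278 and higher in the others (0.28 ± 0.25, and 0.14 without mouse 279).

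For Tgfbr2, 1426397_at read 2574, 2554 and 2563 in restored-labelled cells, within a SD of 10.2, and 2964, 2604 and 2775 in knockdown-labelled cells. The groups did not overlap, although the knockdown-labelled array of mouse 279 lay just above the restored-labelled arrays. The difference was 0.11 ± 0.12 (SE, n = 3 mice), and 0.0078 after centring on the median. The dim probe sets gave 0.39 ± 0.19 for 1425444_a_at, with -0.0091, 0.77 and 0.39 in the mice (0.19 without mouse 279), and 0.032 ± 0.16 for 1422019_at. The former ranged from 43.9 to 101 and the latter from 24.1 to 37.0 over the 6 arrays, and the groups overlapped at both.

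Smad4, the shared SMAD partner gene, was higher in every mouse at all 3 probe sets, and the groups did not overlap at any of them. 1422486_a_at read 4316, 4094 and 4042 in restored-labelled cells and 4906, 4641 and 4610.0 in knockdown-labelled cells. The mice gave almost the same difference (0.18, 0.18 and 0.19), and the fit gave 0.18 ± 0.11 (SE, n = 3 mice), a 1.14-fold ratio. 1422487_at read 4091, 4290.5 and 4357 against 4435, 4492 and 4745 (0.10 ± 0.11). 1422485_at read 919.9, 820.5 and 913 against 949.7, 1093 and 1239, with little difference in mouse 278 (0.045) and more in the others (0.41 and 0.43), for a fitted 0.30 ± 0.14. These are small distances, and centring the arrays lowered 1422486_a_at to 0.078 and 1422487_at to -0.0052. The probe table ties all 3 probe sets to the same source sequence.

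Smad7, the inhibitory SMAD gene, was higher in every mouse at both probe sets, but mainly in mouse 279. 1423389_at read 1029, 506 and 1225 in restored-labelled cells and 1186, 1928 and 1249.6 in knockdown-labelled cells. The lowest and the highest array both belong to mouse 279, and the other 4 lay between 1029 and 1249.6, so the groups overlapped. The difference was 0.71 ± 0.42 (SE, n = 3 mice), with 0.20, 1.90 and 0.028 in the mice, and 0.12 without mouse 279. 1443771_x_at, whose suffix x marks probes that can match other sequences, read 1148, 1538 and 1561 against 1452, 2607 and 1602. Its difference was 0.38 ± 0.18, and 0.19 without mouse 279. The array with the low 1423389_at value is the one with the high 3′ over 5′ ratio, and the part of RNA quality was not tested.

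**Figure D5:**
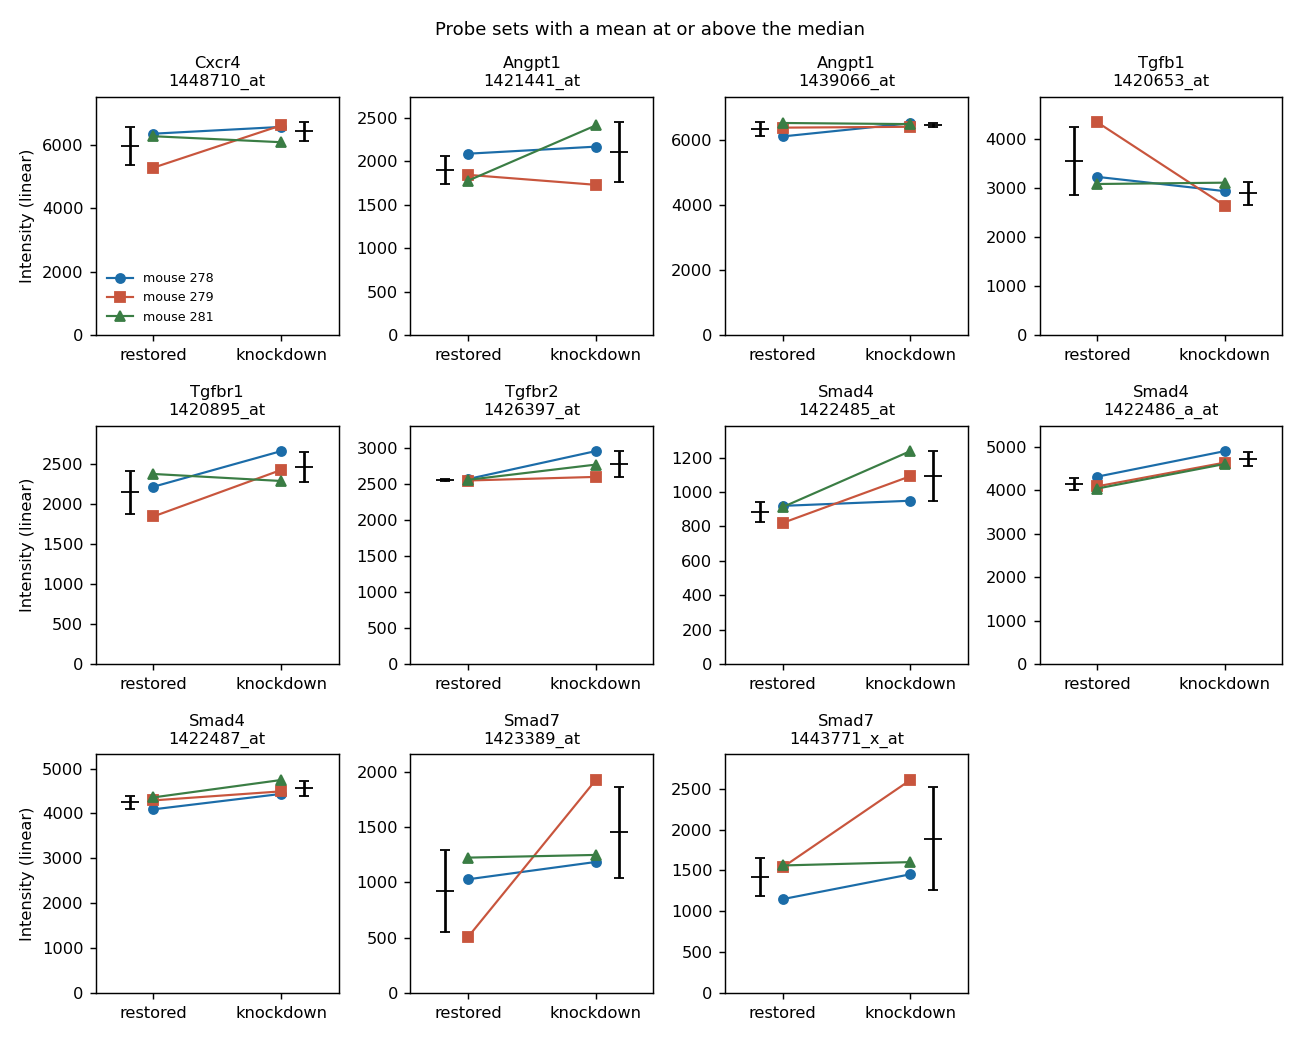
Linear intensity of the probe sets of Cxcr4, Angpt1, Tgfb1, Tgfbr1, Tgfbr2, Smad4 and Smad7 whose mean lies at or above the median probe set, by population, with a line per mouse and the mean ± SD of 3 arrays. The 3 Smad4 panels show all knockdown-labelled arrays above all restored-labelled ones, and in the Tgfb1 and Smad7 panels mouse 279 has the steepest line.

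Other genes of these pathways were taken from 9 lists arranged by role, with 94 genes, of which 85 had 189 probe sets. None passed an adjusted p of 0.05 in limma with Benjamini-Hochberg adjustment over all 45037 probe sets (0 higher, 0 lower), and none did over the whole array (0% of probe sets). At unadjusted p below 0.05 there were 11 higher and 1 lower of the 189, beside 4.46% higher and 1.55% lower of all probe sets, so the share was near that of the array. Of all such probe sets 74.2% were higher, a share that became 52.8% after quantile normalization and 36.8% after centring on the median. The median difference over the lists was 0.066, beside 0.029 over all probe sets, and 121 of the 189 were above 0, beside 55.8% of all probe sets, a share against which the counts of the single lists stand too. The 1 lower probe set belonged to Kitl, the gene of the KIT ligand, and was its dimmest, at most 17.0 on any array. The brightest probe set of Kitl, also dim, went the other way (0.27), with all knockdown-labelled arrays on top.

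The other TGF-beta family receptors had 14 of 25 probe sets above 0 and a median of 0.038, with 3 past an unadjusted p of 0.05. The smallest p belonged to the type II receptor genes Acvr2a and Bmpr2, with 0.48 ± 0.13 and 0.63 ± 0.19 at dim probe sets (adjusted p = 0.817 for both, limma), while their brightest probe sets gave 0.13 and 0.22. The third was Acvr2b, another type II receptor gene, with the largest difference of the list (0.77 ± 0.26) and little of it in mouse 281 (0.068). Bmpr1b, the close relative of Bmpr1a, read 93.5, 79.6 and 130 in the restored-labelled and 62.6, 70.2 and 101 in knockdown-labelled cells at 1422872_at, a difference of -0.31 ± 0.13 (SE, n = 3 mice; adjusted p = 0.818, limma). It was lower in all 3 mice, opposite in sign to most Bmpr1a probe sets, but another dim probe set of Bmpr1b gave 0.25 and was higher in all 3 mice. Ligand genes stayed dim at the probe sets with the smallest p: Bmp2 differed by 0.30 ± 0.14 (0.19 without mouse 279), Bmp4 by 0.60 ± 0.30 and Tgfb3 by -0.37 ± 0.25. Bmp4 gave 0.73, 1.25 and -0.17 in the mice and 0.28 without mouse 279, and Tgfb3 gave 0.18, -0.95 and -0.32 and only -0.073 without it. The TGF-beta and activin ligands had 8 of 13 probe sets higher and the BMP ligands 7 of 12, with 0 of either at unadjusted p below 0.05.

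Of the receptor-regulated and inhibitory SMAD genes 9 of 13 probe sets were above 0, and 1 passed an unadjusted p of 0.05. Smad5, which carries BMP signals, gave 0.40 ± 0.15 and 0.30 ± 0.13 at its brighter probe sets, each higher in 3 of 3 mice (adjusted p = 0.817 for the former, limma), and -0.012 at the remaining one. Smad3, which carries TGF-beta signals, gave 0.51 ± 0.14 at a dim probe set and 0.086 at its brightest. Smad2, another carrier of TGF-beta signals, gave -0.24 ± 0.12 at its brighter probe set, with all knockdown-labelled arrays below the restored-labelled ones. Its other probe set gave -0.073 ± 0.16 with overlapping groups, and -0.028, -0.40 and 0.21 in mice 278, 279 and 281. The SMAD regulators had 25 of 31 probe sets higher (median 0.11, 0 at unadjusted p below 0.05). Among them Zfyve9, an anchor of SMADs at the receptor, gave 0.45 ± 0.19 and Bambi, a decoy receptor, gave -0.31 ± 0.23. Zfyve9 differed by 0.0071, 0.74 and 0.60 in mice 278, 279 and 281, with overlapping groups, and by 0.30 without mouse 279. Bambi was higher in mouse 278 (0.27), and its difference was -0.086 without mouse 279.

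Latency proteins and antagonists had 16 of 22 probe sets higher, 3 at unadjusted p below 0.05, all dim, among them Itgav, an integrin chain that activates latent TGF-beta (1.07 ± 0.35, but 0.58 without mouse 279 and 0.13 at its brightest probe set). Target genes split evenly, with 8 of 16 probe sets higher. Cdkn1c, a cell cycle inhibitor gene, read 122, 113 and 164 against 176, 319 and 232, a difference of 0.77 ± 0.23 (SE, n = 3 mice; adjusted p = 0.817, limma), which was 0.47 without mouse 279. Pmepa1, an inhibitor of the pathway that TGF-beta induces, gave 0.35 ± 0.14, while Id1, a BMP target gene, gave -0.18 ± 0.13.

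In the list of CXCL12 receptor signalling 17 of 31 probe sets were above 0. The unadjusted p was below 0.05 for 3, and all 3 belonged to Dpp4, the gene of the protease that trims and inactivates CXCL12. At 1438279_at Dpp4 read 468, 310.0 and 339 in restored-labelled cells and 696, 526 and 559 in knockdown-labelled cells, without overlap. Its difference was 0.66 ± 0.12 (SE, n = 3 mice; adjusted p = 0.817, limma), and the other probe sets gave 0.68, 0.42 and, at the brightest, 0.30, each higher in all 3 mice. Ackr3, the scavenger receptor of CXCL12, was dim, between 8.66 and 23.2 (0.30 ± 0.20, and 0.11 without mouse 279). Vav1, a signalling adaptor gene downstream of chemokine receptors, gave -0.26 ± 0.12. The remaining niche ligands and receptors had 17 of 26 probe sets higher. Itga4, an integrin chain that binds VCAM1, gave 0.40 ± 0.20 at 1450155_at, but 0.18 without mouse 279 and 0.072 at its brightest probe set. Vcam1 gave -0.62 ± 0.47 at a dim probe set (-1.27 without mouse 279), and its brightest, 1448162_at, gave -0.25 ± 0.74 with opposing mice (-0.15, 1.57 and -2.18).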

How the data were processed

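The deposited values are linear intensities per probe set, summarized by the authors; how they were summarized, background-corrected and scaled was not stated in the sources used here. Per the labels' protocols, RNA from a Qiagen kit was amplified and labelled with NuGEN Ovation V2. Arrays carry no depth, and their number limits the precision. Of 45101 probe sets 64 controls were left out, which left 45037; an older probe table names 34945 by 1 symbol, 932 by several and 9160 are unnamed here. Gene IDs of all 9 genes matched the mouse gene table. Values were taken to log2(value + 16), and limma 3.58.1 (R 4.3.3; lmFit, eBayes) was run over all probe sets without a filter, with the mouse as a fixed block and Benjamini-Hochberg adjustment. The fit was tested on simulated data. Figures were drawn with matplotlib 3.10.9.

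The pairing comes from the labels, which state 1 mouse for both populations. Deviations from the group means, over the 22519 brighter probe sets, correlated within mice at 0.27 (278), -0.077 (279) and -0.21 (281). The genes, lists, markers and rules were chosen with earlier results of these data known. Named genes are the 9 genes with every probe set, in each pathway list those with the smallest unadjusted p in each direction (up to 2), Erg, cell type markers, and the 3 genes with the highest Pearson r to the brightest probe set of Cxcl12 and of Bmpr1a; of the other probe sets of a named gene some are given, in most cases the brightest. Marker sums use the brightest probe set of each gene. Listed genes of the LSK, T-lineage and erythroid marker sets gave 6 of 8, 3 of 3 and 3 of 3 higher on average in knockdown-labelled cells, beside 55.8% of all probe sets. The T-lineage differences were largest in mouse 279 and negative in mouse 281. In mice 278, 279 and 281 they were 0.86, 1.87 and -0.16 (Cd3e), 0.35, 2.10 and -1.33 (Cd3g), and 0.41, 2.01 and -1.26 (Cd3d).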

Additional observations from a re-analysis of the deposited data

How the results depend on the processing

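With 3 mice and values that are dim for 11 of the 25 probe sets, sizes are imprecise. The 22 probe sets above 0 were also 22 with no replicate block, with the replicate block as a random effect and after quantile normalization, and no other call changed with the block, since none was made. Among the brighter probe sets 13 of 14 (filter at the median) and 10 of 11 (upper 30%) were above 0, as fewer were measured. Over the array, unadjusted p below 0.05 was reached by 2705 probe sets, 2571 with no replicate block, 1366 and 822 with these filters, 6181 with array weights, and 1613 to 3185 leaving out a mouse. For the pathway lists this count of 12 was 25 with array weights, 7 with 5 arrays and no mouse term, 2 with 1 probe set a gene, and 5 to 15 leaving out a mouse, lowest without mouse 278; the cause was not tested. At adjusted p below 0.05 only eBayes with trend and robust settings called a probe set, 1 of Igkv9-120, which is none of these genes. Signs turned for 3 of the 25 with array weights, 1 with a floor at 16, and 1 or 2 leaving out a mouse. The counts without mouse 279 and without its restored-labelled array were added after seeing the data; without mouse 279 the groups did not overlap for 12 of the 25, beside 24.9% of all probe sets.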
